A study of Mus musculus with 8 samples.

Results

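The 10 genes described here are the regulators and products of fat cell formation: the transcription factors Pparg, Cebpa, Cebpb, Cebpd and Zfp423, and the adipocyte genes Fabp4, Adipoq, Lpl, Plin1 and Cfd. They were found by gene name in the RNA-sequencing tables of cADSC, stem cells derived from the adipose tissue of the mouse heart, where all 10 were present among 52636 genes. The cells were the plastic-adherent part of the stromal vascular fraction of cardiac fat, taken from wild type (WT) mice or from mice lacking the P2Y2 nucleotide receptor (P2Y2 KO), and kept for 7 days in DMEM with fetal bovine serum. Of the 8 libraries, 4 were from untreated cultures and 4 from cultures given UTP, an agonist of P2Y2, at 100 µM each day for those 7 days. This made 4 groups of 2 libraries (WT, WT + UTP, P2Y2 KO, P2Y2 KO + UTP), each library being made from a pool of RNA. The paper names 2 pools and 2 cultures for each condition, and its wording does not settle how many cultures each pool held. The labels gave C57BL/6J as the strain of all samples, whereas the methods of the study name a CD1/C57BL/6J background for the KO line and state that male and female adult mice were taken at random. Nothing states that the 2 pools of a group came from separate mice. The sex markers below show that they did not hold the same set of mice in untreated WT and in both KO groups. Whether some mice were shared is not known, so the p-values below measure only the spread between pools.

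Fat cells form from mesenchymal progenitors through a cascade of transcription factors. In the textbook sequence, Cebpb and Cebpd are induced early by adipogenic hormones and switch on Pparg and Cebpa, which then maintain each other and drive the genes of the mature cell, while Zfp423 marks and commits preadipocytes. The products include Fabp4, a carrier of fatty acids inside the cell; Plin1, the coat protein of the lipid droplet; Lpl, the lipase that frees fatty acids from lipoproteins; and the secreted proteins Adipoq (adiponectin) and Cfd (adipsin, also factor D of the alternative complement pathway). No adipogenic medium was used for the cells sequenced, and the floating adipocytes had been discarded during isolation.

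Depth was alike, at 20008555 to 20015454 deposited counts in each library, which the study had scaled by 1 factor per library. Levels are in CPM, the usual unit of counts relative to a library's total. Reads of P2ry2 were present under both labels, with 17.3 to 18.1 CPM in untreated WT and 14.0 to 15.5 CPM in untreated P2Y2 KO, and a gene table does not tell its exons apart, so the transcript's level did not check the genotype. P2Y2 KO below means the libraries so labelled. The pools differed in sex. The first KO pools, untreated and with UTP, held Xist at 0.0999 and 0.15 CPM, whereas the second KO pools held it at 215 and 221 CPM, and the first untreated WT pool held no read of 4 Y-linked genes. A share of male cells was estimated from Xist relative to the first untreated WT pool, where Xist was highest, which set that pool to 0%. It came to 45.0 to 46.7% in the other WT pools, 100% in both first KO pools and 51.2 to 52.4% in both second KO pools. The 4 Y-linked genes gave a less even picture in WT, summing to 61.3 CPM in the second untreated pool and 85.0 CPM in both UTP-treated pools. In the first KO pools they summed to 199 and 195 CPM, and in the second to 115 and 105 CPM. Progenitor markers were abundant in all libraries (8952 to 12687 CPM summed over 11 genes), and 15 macrophage markers summed to 2517 to 3443 CPM in WT, 1565 to 1631 CPM in WT + UTP, 4090 to 4677 CPM in P2Y2 KO and 3293 to 3465 CPM in P2Y2 KO + UTP. The 5 markers of epithelium, another cell type that the isolate could hold, summed to 103 to 127 CPM in the second untreated and both UTP-treated WT pools and to 12.5 to 25.7 CPM in the other libraries. The 10 markers of mature adipocytes summed to 266 to 511 CPM over the 8 libraries, mostly from markers other than Adipoq and Plin1. The sum was 432 CPM in the first untreated WT pool, where Adipoq was at 13.4 and Plin1 at 10.5 CPM. In the second untreated KO pool it was 511 CPM, where they were at 44.1 and 46.3 CPM. Lep (leptin) was at 0 to 0.15 CPM. The 5 markers of brown adipocytes summed to 4.90 to 7.09 CPM. Of these, Ucp1 was at 0 to 0.1 CPM and Cidea at 0 in every library, which for 3 counts allows up to 0.15 CPM.

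To compare levels between genes, CPM was divided by the length of all annotated exons of each gene. On this per-length scale Lpl had the highest mean of the 10 in every group. In P2Y2 KO the mean of Cfd was close to it (68.6 and 68.2 CPM per kilobase, SD 6.17 and 47.2, n = 2). In P2Y2 KO + UTP they were at 71.9 and 52.2 CPM per kilobase (SD 7.79 and 37.2, n = 2), so Lpl and Cfd are not ordered in the KO groups. In untreated WT the order after Lpl (63.5 CPM per kilobase) was Cebpa (22.4), Fabp4 (20.7), Cfd (15.3), Cebpb (11.6), Adipoq (9.30), Pparg (4.37), Cebpd (4.06), Plin1 (2.45) and Zfp423 (1.06). With the wide SDs given above, Cfd had no settled place in the KO groups on this scale. The annotated exons of Fabp4 together cover 4489 bases, its whole span from start to end, so its per-length level is a low estimate. Its place against Cebpa and Lpl is therefore not settled, whatever the spread between pools. All annotated exons together can also be longer than the main transcript of other members, such as Lpl (10478 bases) and Plin1 (4649 bases). This was not examined, so the order given holds for this scale only. Pparg and Cebpd, neighbours in this order, differed by less than the SD of either (1.01 and 0.82 CPM per kilobase, n = 2) and are not ordered. Nor are Cebpb and Adipoq, which differed by less than the SD of Cebpb (2.68).

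Pparg (chromosome 6, 115360951 to 115490399, GRCm38), the nuclear receptor without which fat cells do not form, was read at 14.99 and 10.8 CPM in the WT pools, 8.65 and 8.75 CPM in WT + UTP, 12.7 and 16.7 CPM in P2Y2 KO, and 8.75 and 14.8 CPM in P2Y2 KO + UTP. Its WT and WT + UTP pools did not overlap, and all other pairs of groups that shared a genotype or a treatment did. Cebpa (chromosome 7, 35119293 to 35121928), its partner in the mature cell, was at 60.7 and 57.5 CPM in WT, 65.3 and 57.8 CPM in WT + UTP, 78.3 and 83.4 CPM in P2Y2 KO, and 70.5 and 81.3 CPM in P2Y2 KO + UTP. All 4 KO pools lay above all 4 WT pools for Cebpa.

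The early factor Cebpb (chromosome 2, 167688915 to 167690418) was at 14.6 and 20.3 CPM in WT, 20.3 and 19.99 CPM in WT + UTP, 27.8 and 21.9 CPM in P2Y2 KO, and 29.2 and 25.8 CPM in P2Y2 KO + UTP. Cebpd (chromosome 16, 15887286 to 15891031) was at 13.0 and 17.4 CPM in WT, 25.8 and 23.2 CPM in WT + UTP, 33.1 and 22.0 CPM in P2Y2 KO, and 39.4 and 29.4 CPM in P2Y2 KO + UTP. For both genes the KO pools lay above the WT pools within each treatment, and in KO cells the first pool was the higher one with and without UTP. Zfp423 (chromosome 8, 87661810 to 87959595, minus strand) was the lowest member, at 4.60 to 7.15 CPM over the 8 libraries, and no groups separated. Pparg, Cebpa, Cebpb and Cebpd each share ground with 1 annotated gene on the opposite strand, and the strand setting of the counting is not given in the sources used here, so reads of these partners cannot be told apart from theirs.

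The adipocyte genes spread more widely. Fabp4 (chromosome 3, 10204088 to 10208576, minus strand) was at 89.2 and 96.9 CPM in WT, 79.0 and 79.3 CPM in WT + UTP, 132 and 206 CPM in P2Y2 KO, and 116 and 191 CPM in P2Y2 KO + UTP. Adipoq (chromosome 16, 23146536 to 23158028) was at 13.4 and 12.2 CPM in WT, 6.90 and 6.70 CPM in WT + UTP, 15.99 and 44.1 CPM in P2Y2 KO, and 14.5 and 35.9 CPM in P2Y2 KO + UTP. For both, every KO pool was higher than every WT pool, and the 2 KO pools of a group differed far more than the 2 WT pools.

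Plin1 (chromosome 7, 79720218 to 79732903, minus strand) was at 10.5 and 12.2 CPM in WT, 7.05 and 5.75 CPM in WT + UTP, 16.4 and 46.3 CPM in P2Y2 KO, and 13.0 and 40.2 CPM in P2Y2 KO + UTP. Cfd (chromosome 10, 79890853 to 79892655) was at 14.8 and 13.4 CPM in WT, 7.35 and 7.00 CPM in WT + UTP, 32.1 and 93.7 CPM in P2Y2 KO, and 23.9 and 72.3 CPM in P2Y2 KO + UTP. These repeated the order seen for Adipoq, with WT + UTP lowest and the second untreated KO pool highest. Lpl (chromosome 8, 68880491 to 68907448), which macrophages and muscle also make, was at 732 and 598 CPM in WT, 592 and 569 CPM in WT + UTP, 673 and 764 CPM in P2Y2 KO, and 696 and 811 CPM in P2Y2 KO + UTP. Its KO pools lay above its WT pools only with UTP. In RNA from whole cultures, more fat-laden cells and more RNA of these genes per cell cannot be told apart.

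**Figure D1:**
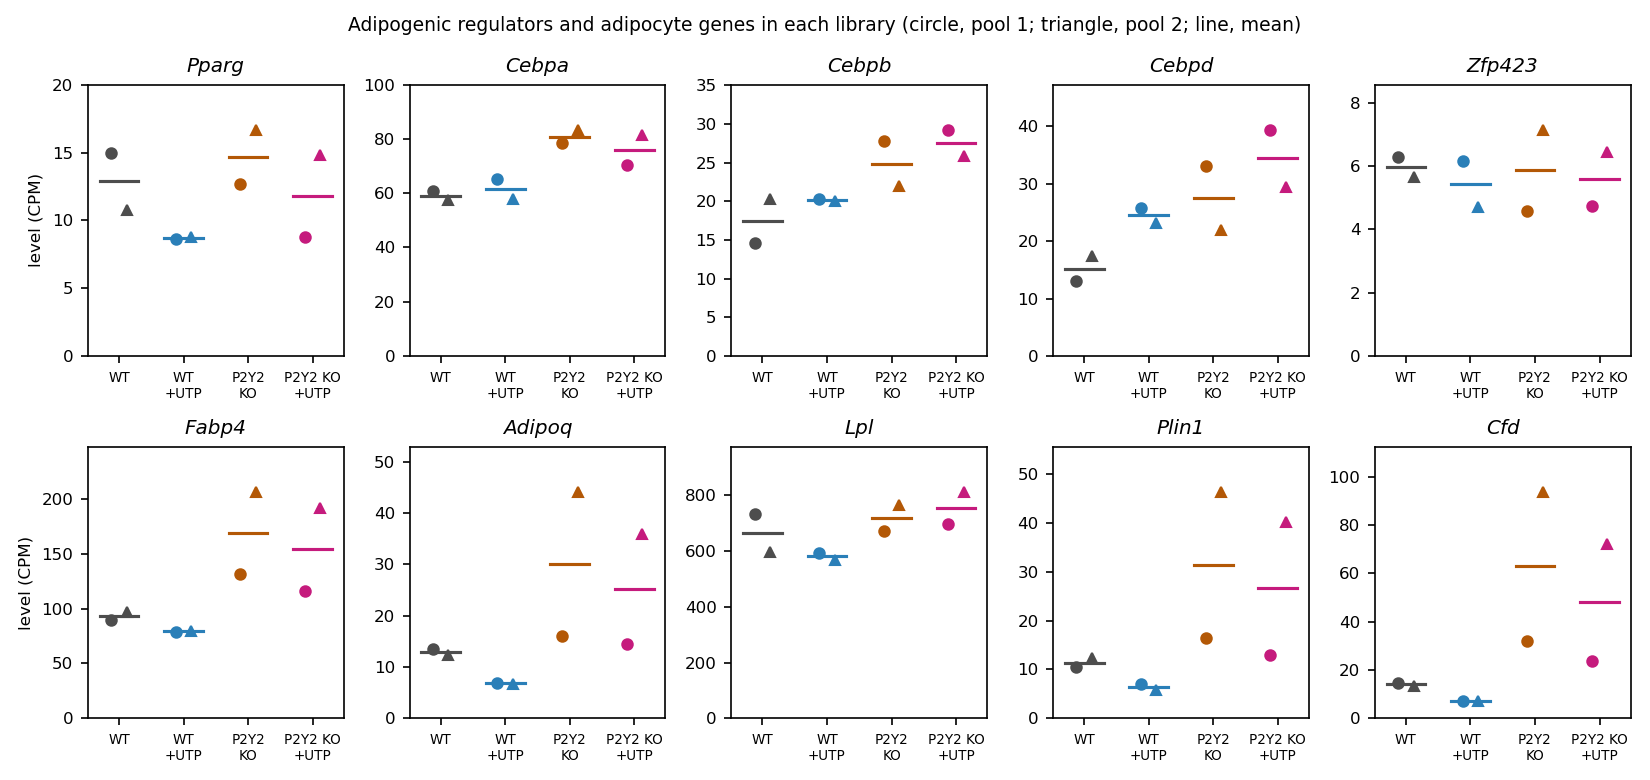
Level (CPM, axis from 0) of the 10 genes in each of the 8 libraries; circles are the first pools, triangles the second pools, and lines the mean of 2 pools. In both KO groups Adipoq, Plin1, Cfd and Fabp4 are higher in the second pool (Cfd: 93.7 CPM untreated, 72.3 CPM with UTP), whereas Cebpb and Cebpd are higher in the first.

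Within the KO groups the second pool held more of 4 adipocyte genes than the first, with and without UTP. The second untreated KO pool exceeded the first 2.92-fold for Cfd, 2.82-fold for Plin1, 2.76-fold for Adipoq and 1.56-fold for Fabp4, and with UTP these ratios were 3.03, 3.08, 2.48 and 1.65. A ratio above 2 was found for 3 of the 10 genes in each KO group, against 1.21% of the 17529 genes tested in P2Y2 KO and 1.16% in P2Y2 KO + UTP. Among the other adipocyte-defining and adipokine genes, 7 of 13 passed this ratio in P2Y2 KO and 6 of 13 in P2Y2 KO + UTP, with medians of 2.13 and 2.00, against medians of 0.98 and 0.98 over all genes. They included Plin4, a droplet coat protein (2.97 and 2.71), Car3, the carbonic anhydrase of white fat (2.78 and 2.93), and Adrb3, the adrenergic receptor of adipocytes (2.27 and 2.35), which are named after their values were seen. In WT cells the corresponding ratios of Adipoq were 0.91 and 0.97, and of Cfd 0.91 and 0.95.

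The regulators did not follow this pattern as a group. Between the second and the first KO pool Pparg had ratios of 1.31 (untreated) and 1.70 (with UTP) and Zfp423 of 1.55 and 1.36, while Cebpa was at 1.06 and 1.15. Cebpb (0.79 and 0.88) and Cebpd (0.66 and 0.75) ran the other way. The summed level of 5 smooth muscle markers moved with the adipocyte genes (2736 and 3879 CPM in the first and second untreated KO pool, 2910 and 4113 CPM with UTP). Of these markers Des did not move, with ratios of 1.06 (untreated) and 0.99 (with UTP). The estimated share of male cells given above was lower in the second KO pools. The part of either in these ratios was not tested, and sex cannot be told apart from other features of these pools, since each KO group had 1 pool of each kind.

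**Figure D2:**
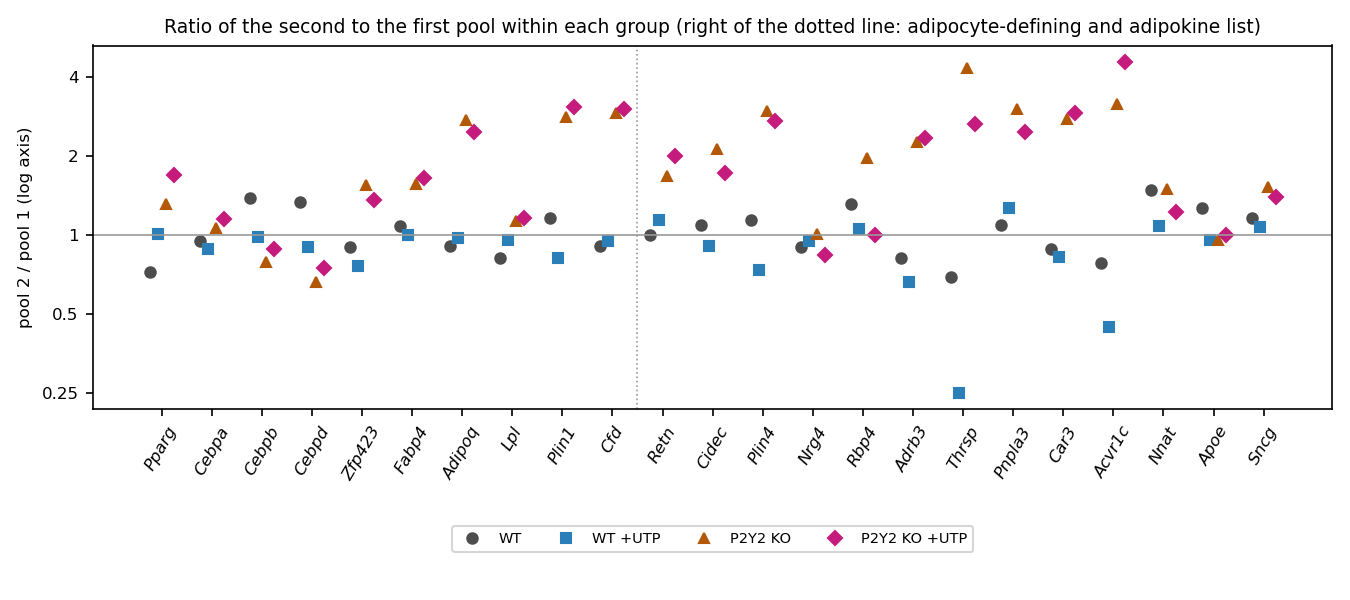
Ratio of the second to the first pool (log axis) within each of the 4 groups, for the 10 genes and, right of the dotted line, the 13 tested genes of the adipocyte-defining and adipokine list. In both KO groups Adipoq, Plin1 and Cfd lie between 2.48 and 3.08, while their WT ratios lie between 0.82 and 1.17.

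The bases just before the RefSeq start of Adipoq, Plin1 and Cfd are shown because these genes moved together over the pools. They are given 5′ to 3′ on the gene's strand from RefSeq's GRCm38.p6 tables, in which 7 of the 10 genes were matched. Capitals mark matches to the relaxed C/EBP letters TTNNGNAA on either strand. For Plin1, whose RefSeq start lies inside the longer annotated gene, only the part before that gene is printed.
Adipoq, chr16:23146286-23146535, plus strand: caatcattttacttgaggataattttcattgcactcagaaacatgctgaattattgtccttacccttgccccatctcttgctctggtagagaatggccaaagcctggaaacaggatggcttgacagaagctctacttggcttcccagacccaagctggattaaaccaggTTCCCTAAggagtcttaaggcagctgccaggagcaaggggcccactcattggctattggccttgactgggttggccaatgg
Plin1, chr7:79732904-79733026, minus strand: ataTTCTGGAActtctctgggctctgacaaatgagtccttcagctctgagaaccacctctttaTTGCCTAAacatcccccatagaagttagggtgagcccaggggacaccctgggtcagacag
Cfd, chr10:79890603-79890852, plus strand: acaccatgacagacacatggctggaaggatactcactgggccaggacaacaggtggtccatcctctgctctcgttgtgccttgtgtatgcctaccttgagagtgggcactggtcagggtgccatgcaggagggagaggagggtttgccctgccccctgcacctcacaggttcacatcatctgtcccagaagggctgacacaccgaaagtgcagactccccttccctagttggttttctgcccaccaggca
In the 250 bases before the RefSeq start, Adipoq held 1 such match, Plin1 3 and Cfd none, and 36.8% of 32851 promoters of the same length held at least 1. The strict palindrome TTGCGCAA (0.164% of promoters) and the nuclear receptor motif AGGTCA (14.0%) were found in none of the 3. A match is a description of letters, not a site.

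The comparison of WT + UTP with WT asks how the nucleotide alters these genes where P2Y2 is present. Per the paper, UTP would also act on P2Y4, whose mRNA was weakly detected in these cells. In edgeR's quasi-likelihood test, with p-values adjusted over 17529 genes, 0 of the 10 genes passed an adjusted p of 0.05, against 0.143% of all genes called higher and 1.08% called lower. At an unadjusted p below 0.05 there was 1 gene, Cebpd, and DESeq2 called 1. For Cebpd the log2 fold change was 0.69 with a standard error of 0.22 (edgeR, adjusted p = 0.169, n = 2 pools a group), and the adjusted p ranged from 0.00742 to 0.637 over the alternatives. The UTP-treated pools lay below both untreated pools for 6 genes (Pparg, Fabp4, Adipoq, Lpl, Plin1 and Cfd), a pattern that 25.8% of all genes had, and above them for Cebpd, as for 26.2%. The log2 fold changes of those 6 were −0.57 for Pparg (95% interval −1.19 to 0.05), −0.92 for Adipoq (−2.21 to 0.37), −0.83 for Plin1 (−2.30 to 0.65), −0.97 for Cfd (−2.53 to 0.58), −0.23 for Fabp4 and −0.20 for Lpl. The 4 intervals given include 0. All 4 groups share 1 estimate of the spread in this test, the KO pools included. With the share of male cells as a covariate, chosen after seeing the data, the values for Adipoq, Plin1 and Cfd were −0.37, −0.29 and −0.34.

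In P2Y2 KO cells given UTP, 0 of the 10 genes were called, with 0 at an unadjusted p below 0.05 and 0 by DESeq2, against 0.0342% of all genes called higher and 0% called lower. The estimates ran from −0.38 for Cfd to 0.33 for Cebpd, and for no gene did both UTP-treated pools lie on 1 side of both untreated pools, which 16.7% of all genes did upward and 21.1% downward. The difference between the UTP effects in KO and WT cells was called for 0 of the 10 genes and for 0% of all genes (922 at an unadjusted p below 0.05, 6 by DESeq2). For Adipoq this difference was 0.67 (95% interval −1.03 to 2.37), for Pparg 0.26 (−0.60 to 1.12) and for Cebpd −0.36 (−1.04 to 0.32), all on the log2 scale. The effect of UTP was therefore not shown to differ between the genotypes for any of the 10.

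Untreated cells of the 2 genotypes were then compared, which asks how cells labelled P2Y2 KO differ before any UTP is added. In untreated cells 4 of the 10 genes were called higher in P2Y2 KO and 0 lower, against 10.5% of all genes called higher and 10.2% lower. Both KO pools lay above both WT pools for 7 of the 10 (Cebpa, Cebpb, Cebpd, Fabp4, Adipoq, Plin1 and Cfd), as for 31.8% of all genes. The called genes were Cfd, higher by 2.16 ± 0.59 on the log2 scale (estimate ± SE in edgeR, adjusted p = 0.0366), Fabp4 by 0.86 ± 0.25 (adjusted p = 0.0450), Cebpd by 0.85 ± 0.22 (adjusted p = 0.0283) and Cebpa by 0.45 ± 0.09 (adjusted p = 0.0137). The mean level of Cfd was 14.1 ± 0.99 CPM in WT against 62.9 ± 43.5 CPM in P2Y2 KO, and that of Cebpa 59.1 ± 2.23 against 80.9 ± 3.55 CPM (SD, n = 2). The median log2 fold change of the 10 genes was 0.68, against 0.02 over all genes tested.

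The other 6 did not pass. Cebpb had a log2 fold change of 0.51 (adjusted p = 0.0542), Plin1 of 1.46 (adjusted p = 0.104) and Adipoq of 1.23 (adjusted p = 0.117), with intervals that excluded 0 before adjustment. Pparg was at 0.19 (95% interval −0.41 to 0.78), Lpl at 0.11 (−0.17 to 0.39) and Zfp423 at −0.03 (−0.59 to 0.54). These intervals leave room for a change of Pparg of up to 0.78 on the log2 scale, so the test does not show that Pparg was alike in the genotypes.

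With UTP in both genotypes, 3 of the 10 genes were called higher in P2Y2 KO and 0 lower, against 9.52% of all genes called higher and 7.9% lower. Both KO pools lay above both WT pools for 8 of the 10, Lpl being added to the 7 above, as for 31.7% of all genes. Here Cfd was higher by 2.75 ± 0.64 on the log2 scale (estimate ± SE in edgeR, adjusted p = 0.0223), Fabp4 by 0.97 ± 0.25 (adjusted p = 0.0343) and Adipoq by 1.90 ± 0.54 (adjusted p = 0.0458). Plin1 at 2.07 (adjusted p = 0.0523), Cebpa at 0.31 (0.0525) and Lpl at 0.38 (0.0637) fell just short of the threshold. Cebpb was at 0.45 (adjusted p = 0.0793), Cebpd at 0.49 (0.139), Pparg at 0.45 (0.299) and Zfp423 at 0.05 (0.913). The mean level of Cfd was 7.17 ± 0.25 CPM in WT + UTP against 48.1 ± 34.3 CPM in P2Y2 KO + UTP, and that of Adipoq 6.80 ± 0.14 against 25.2 ± 15.1 CPM (SD, n = 2). The median log2 fold change of the 10 was 0.47, against 0.00 over all genes.

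**Figure D3:**
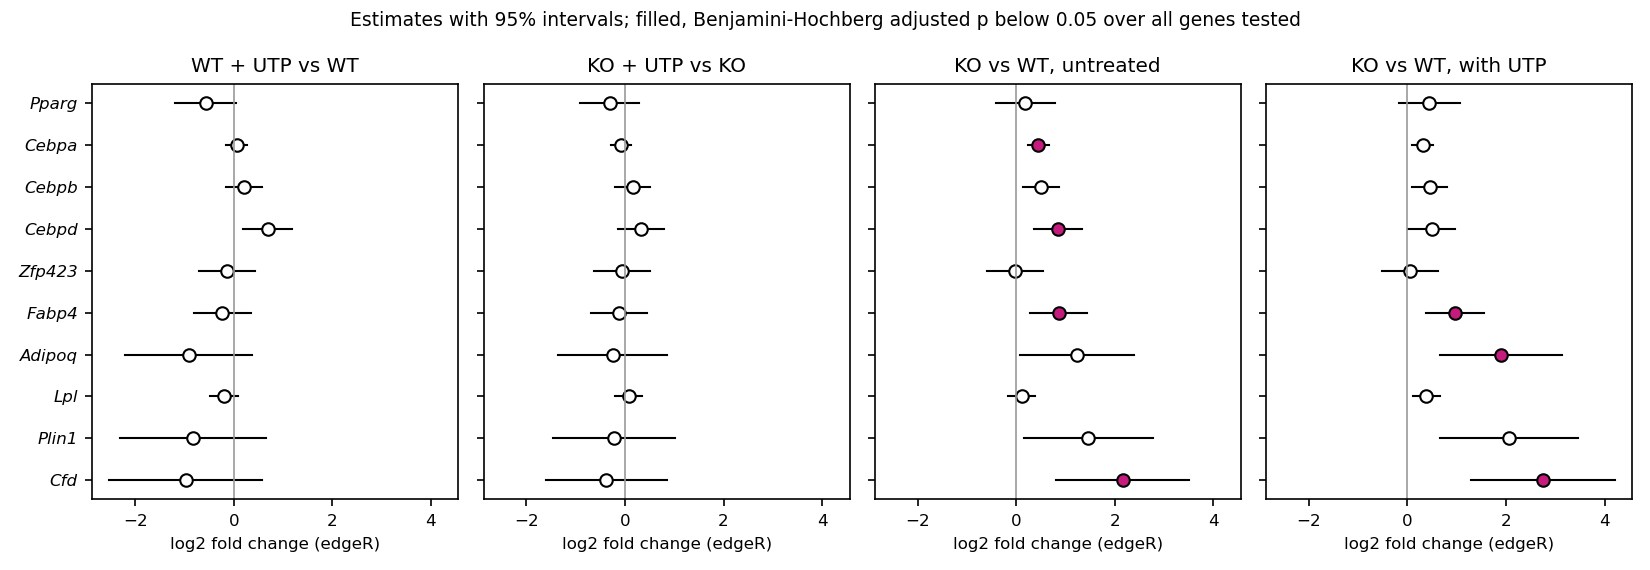
Log2 fold changes of the 10 genes (edgeR, points) with 95% intervals (lines) in 4 comparisons; filled points have an adjusted p below 0.05 over 17529 genes. No point is filled for UTP in either genotype, 4 are filled for P2Y2 KO against WT untreated and 3 with UTP, and Adipoq, Plin1 and Cfd have the widest intervals.

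The calls between genotypes depended on single libraries. In untreated cells Cfd and Fabp4 were no longer called without either untreated WT pool, without either WT + UTP pool or without the second untreated KO pool, where their log2 fold changes lay between 1.18 and 2.75 and between 0.49 and 1.16 over all 8 leave-outs. Cebpd lost its call without the first untreated WT pool, either WT + UTP pool or the first untreated KO pool (0.55 to 1.11 over the 8 leave-outs), and Cebpa without either untreated KO pool (0.40 to 0.51). With UTP, the calls of Cfd (1.74 to 3.35), Fabp4 (0.56 to 1.29) and Adipoq (1.10 to 2.42) were lost without either WT + UTP pool or without the second KO + UTP pool. The direction was kept in each of these fits. Without both second KO pools, an alternative added after seeing the data, each KO group is 1 pool, assumed to vary like the WT pools. Cfd was then called in untreated cells (log2 fold change 1.17, adjusted p = 0.0121 in edgeR) and with UTP (1.74, adjusted p = 0.00758), as was Fabp4 (0.48, adjusted p = 0.0234, and 0.56, adjusted p = 0.0201). Adipoq was called with UTP (1.10, adjusted p = 0.0195) and not in untreated cells (0.30, adjusted p = 0.193). Without both first KO pools Cfd was at 2.75 (adjusted p = 0.000758) untreated and 3.35 (adjusted p = 0.000270) with UTP, and Adipoq and Plin1 were called in both comparisons. Cebpd lost its call in untreated cells there (0.55, adjusted p = 0.144) and kept it without both second KO pools (1.10, adjusted p = 0.0248). Cebpa lost its call in untreated cells in either fit, with 0.51 (adjusted p = 0.0606) without the first and 0.39 (adjusted p = 0.0669) without the second KO pools. In DESeq2 Fabp4 was not called in untreated cells (0.86, adjusted p = 0.0780) and Cebpb was (0.50, adjusted p = 0.0405), and with UTP Lpl was called beside the 3 genes above (0.39, adjusted p = 0.0104).

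Sex was unequal between the genotypes as well as between pools. When the share of male cells was entered as a covariate, which was chosen after seeing the data, 7 of the 10 genes were called higher in P2Y2 KO in untreated cells and 7 with UTP. Of all 17529 genes, 1435 were then called in either direction in untreated cells and 3243 with UTP. In untreated cells Cfd then had a log2 fold change of 3.39 (adjusted p = 0.00231 in edgeR), Plin1 of 2.53 (0.0160), Adipoq of 2.28 (0.00746), Fabp4 of 1.33 (0.0117) and Pparg of 0.83 (0.0169). Cebpd lost its call there, with 0.32 (adjusted p = 0.128), and Cebpb was at 0.17 (adjusted p = 0.423). The covariate rests on 1 gene and on the differences between the pools of a group, in untreated WT (0 and 45%) as well as in both KO groups, so it carries whatever else set those pools apart. The macrophage markers given above were also higher in KO cells and lower with UTP, and their part in these differences was not tested.

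**Figure D4:**
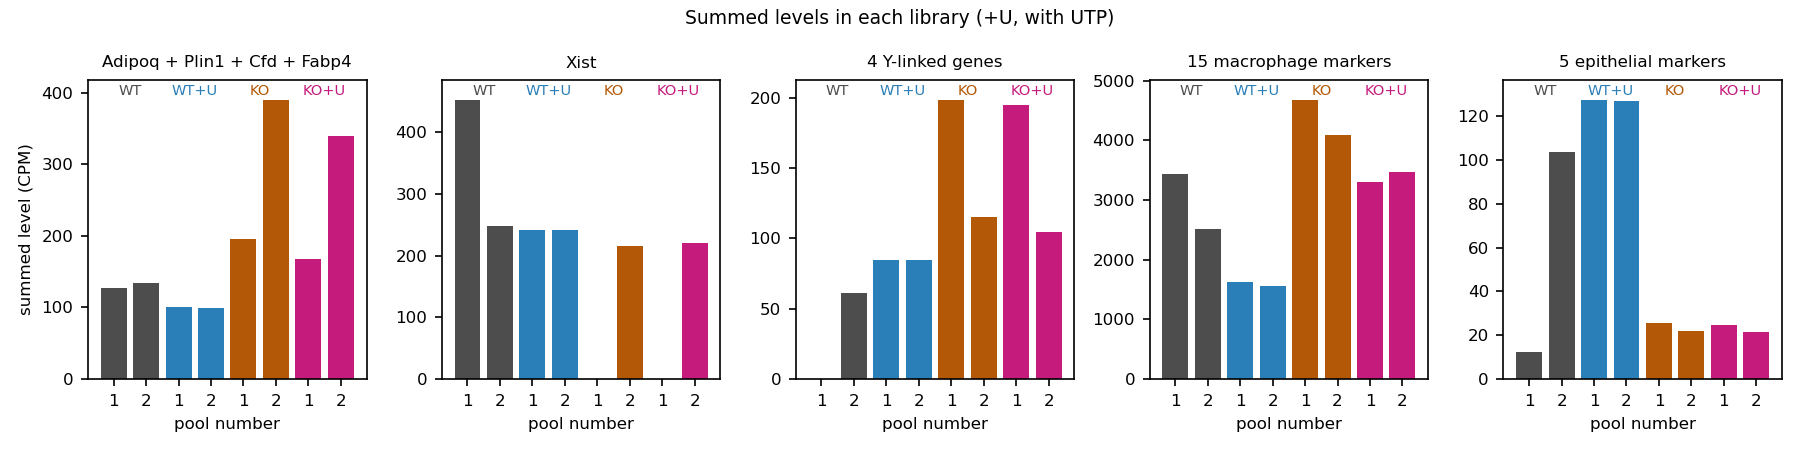
Summed level (CPM, axes from 0) in each library, by group and pool number, of Adipoq, Plin1, Cfd and Fabp4, of Xist, of 4 Y-linked genes, of 15 macrophage markers and of 5 epithelial markers. The 4 adipocyte genes sum to 390 CPM in the second and 196 CPM in the first untreated KO pool, where Xist is at 215 and 0.0999 CPM.

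Genes that work with the 10 were read from lists, beginning with other adipocyte-defining and adipokine genes. The counts called in every list stand against the shares of all genes called. For P2Y2 KO against WT these were 10.5% higher and 10.2% lower in untreated cells, and 9.52% and 7.9% with UTP. For UTP in WT they were 0.143% and 1.08%, and for UTP in P2Y2 KO 0.0342% and 0%. Of the 214 genes called for UTP in WT, DESeq2 also called 205, but a fit of 1 genotype alone called only 2. The list genes named below for UTP in WT are given without their values in these alternatives. Of the 16 adipocyte-defining and adipokine genes 13 were tested. In untreated cells 2 were higher in P2Y2 KO and 0 lower, with a median log2 fold change of 1.07. These were Apoe, a lipoprotein component that macrophages make too (0.86, adjusted p = 0.00204 in edgeR), and Cidec, which enlarges lipid droplets (1.64, adjusted p = 0.0401). With UTP 3 were higher, namely Apoe (0.65), Cidec (1.69) and Sncg, a synuclein found in adipocytes (0.95), and the median was 1.13. Cidec itself was low, at 0.5 to 0.6 CPM in WT pools and 1.15 to 2.45 CPM in KO pools. In WT cells with UTP none of the 13 passed and their median was −0.34, and in KO cells with UTP none passed and the median was −0.26, against 0.01 and 0.00 over all genes.

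The genes of lipid droplets, lipid uptake and triglyceride turnover, 35 tested of 39, were read next. In untreated cells 12 were called higher and 1 lower, against 10.5% and 10.2% of all genes, the median being 0.32. The 8 with the lowest p were the fatty acid transporter Slc27a1 (1.07), G0s2, an inhibitor of the triglyceride lipase (1.49), the phosphatidate phosphatase Lpin1 (0.47), the hormone-sensitive lipase Lipe (1.24), the lipoprotein receptor Lrp1 (0.33), the triglyceride lipase Pnpla2 (0.87), the fatty acid synthase Fasn (0.43) and the droplet protein Plin3 (0.23). With UTP 10 were higher and 0 lower, with a median of 0.33, and the 8 with the lowest p were Slc27a1 (0.98), G0s2 (1.72), Plin2 (0.56), Lpin1 (0.34), Lipe (1.08), Abhd5, the activator of Pnpla2 (0.38), Pnpla2 (0.77) and the fatty acid elongase Elovl6 (0.26). Lipe had 13.2 and 15.7 CPM in the WT pools against 26.2 and 42.1 CPM in the P2Y2 KO pools, and G0s2 at 3.35 and 4.10 against 8.49 and 12.5 CPM. UTP in WT cells lowered 1 of the 35, the droplet coat Plin2 (−0.61, adjusted p = 0.0321), which macrophages also carry, from 221 and 183 to 131 and 132 CPM. No gene of the list was called for UTP in KO cells.

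The other transcription factors and cofactors of adipogenesis, 39 tested of 40, moved in both directions. In untreated cells 4 were higher in P2Y2 KO and 6 lower, with a median log2 fold change of −0.09. Of all genes 10.5% were called higher and 10.2% lower there, so these counts are not read as a trait of the list. Those with the lowest p were Foxc2 (−1.18), Egr2 or Krox20, an early inducer of the cascade (−1.21), the zinc finger factor Zfp467 (0.65), Ebf2, a marker of committed preadipocytes (−0.75), Srebf1, an activator of lipid synthesis (0.46), Cebpz (−0.27), the early factor Klf4 (−0.26) and Rxra, the partner of Pparg in binding DNA (0.28). With UTP 0 were higher and 8 lower, with a median of −0.10, the 8 being Egr2 (−1.28), Med1 (−0.29), Cebpz (−0.26), Klf4 (−0.26), Zfp521, an inhibitor of Ebf action (−0.33), Gata2, which holds preadipocytes back (−0.65), Ebf2 (−0.51) and Foxc2 (−0.57). Egr2 had 35.1 and 32.9 CPM in the WT pools against 12.4 and 17.0 CPM in the P2Y2 KO pools, so it and Ebf2 ran against Cebpa and Fabp4. None of the 39 passed for UTP in either genotype.

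Secreted and signalling proteins that hold back or induce fat cell formation, 26 tested of 30, were read next. In untreated P2Y2 KO 4 were called higher and 9 lower, against 10.5% and 10.2% of all genes, with a median of −0.04. The 8 with the lowest p were Bmp4, an inducer of commitment (−0.73), the growth factor Fgf1 (0.73), the activin antagonist Fst (−0.91), the receptor Igf1r (−0.39), Inhba, the activin A subunit, which keeps progenitors dividing (−1.34), the Wnt modulator Sfrp2 (0.75), Tgfb1, an inhibitor (0.34), and Mest, a marker of fat expansion (−0.43). With UTP 2 were higher and 7 lower, with a median of −0.08, and the 8 with the lowest p were Bmp4 (−0.63), Tgfb1 (0.51), Mest (−0.56), Igf1r (−0.29), Fst (−0.64), Irs1 (−0.37), Inhba (−1.01) and Dlk1, the preadipocyte factor whose loss marks differentiation (−0.43). Inhba had 273 and 242 CPM in the WT pools against 80.0 and 124 CPM in the P2Y2 KO pools, and Dlk1 32.1 and 32.8 against 26.7 and 22.9 CPM. None of the 26 passed for UTP in either genotype.

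Surface and other markers of adipocyte progenitors, 19 tested of 19, had medians of 0.25 in untreated cells and 0.10 with UTP. In untreated cells 5 were higher in P2Y2 KO and 1 lower, against 10.5% and 10.2% of all genes. Those higher were Ly6a or Sca1 (0.53), Cd34 (0.80), Pdgfra (0.30), Icam1 (0.49) and Cd55 (0.35), and Cd44 was lower (−0.51). With UTP 5 were higher and 1 lower, namely Ly6a (0.51), Cd9 (0.61), Cd34 (0.88), Icam1 (0.69), Pdgfra (0.33) and, lower, Tbx18 (−0.25). UTP in WT cells raised 1 of the 19, Ly6a (0.45, adjusted p = 0.0345 in edgeR), from 102 and 112 to 143 and 149 CPM. In KO cells with UTP none was called, and Ly6a was at 154 and 155 CPM without and 221 and 194 CPM with UTP.

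Cfd is the protease that starts the alternative complement pathway, and its partners were read for that reason. Of 7 tested, 4 were higher in untreated P2Y2 KO and 0 lower, against 10.5% and 10.2% of all genes, with a median of 0.35. The 4 were its substrate Cfb (1.86, adjusted p = 0.00412 in edgeR), C3 (1.30), properdin or Cfp (0.92) and the inhibitor Cd55 (0.35). With UTP 4 were higher and 0 lower, with a median of 0.95, these being Cfp (1.73), Cfb (1.61), C3 (0.95) and the receptor C3ar1 (1.01). Unlike Cfd, Cfb was higher in the first than in the second KO pool, at 212 and 129 CPM untreated and 336 and 230 CPM with UTP. UTP in WT cells lowered Cfp (−1.40) and C3ar1 (−1.63), both expressed by macrophages, and no partner was called in KO cells with UTP.

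The genes whose levels followed each member most closely over the 8 libraries were sought among 12307 genes, as a description by Pearson's r of log2(CPM + 1). Adipoq was followed by Plin1 (0.991), Car3 (0.99) and Plin4 (0.99), Plin1 by Plin4 (0.998), Adipoq (0.991) and Car3 (0.986), Fabp4 by Cfd (0.991), the glycerol phosphate dehydrogenase Gpd1 (0.987) and Plin1 (0.984), and Cfd by Fabp4 (0.991), the adiponectin receptor Adipor2 (0.985) and Adipoq (0.984). Cebpd was followed by Casp12 (0.998), Hdc (0.994) and Sod3 (0.99), Cebpb by Tfcp2l1 (0.994), Sema3b (0.992) and Flad1 (0.987), Cebpa by Tfe3 (0.977), Rasgrp2 (0.974) and Cxx1a (0.972), and Pparg by Nabp1 (0.963), Npr3 (0.948) and Flii (0.934). Zfp423 was followed by Gm26719 (0.966), Mical1 (0.944) and Alg14 (0.913), and Lpl by Bcl2l2 (0.976), Phf8 (0.964) and Gm44616 (0.964). Among the members themselves r was 0.971 between Fabp4 and Adipoq, 0.938 between Cebpb and Cebpd, 0.901 between Cebpa and Fabp4, 0.894 between Cebpa and Cfd, 0.822 between Pparg and Adipoq and 0.111 between Cebpd and Adipoq. The 8 points share their pools, groups and depth, so these values describe the libraries only.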

How the data were processed

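RNA-sequencing (stranded mRNA libraries, paired ends) had been made from 8 pools of cADSC RNA. Per the labels, the authors used Trimmomatic, STAR and HTSeq on mm10 (GRCm38.p4), with no versions given. The deposited values are expected counts, that is HTSeq counts per gene multiplied by 1 factor per library (0.90842 to 1.07527, recovered from the values) and rounded up. The scaling made the library totals nearly equal, and totals before it differed by the same factors. The authors' columns of group means and ratios were not used. Gene names that had turned into dates in the KO table (15 in all) were restored by gene ID. Genes above 0.5 CPM in at least 2 of 8 libraries (17529 of 52636) were tested in edgeR 4.0.16 (R 4.3.3; TMM, quasi-likelihood F test, 4 groups, Benjamini-Hochberg adjustment over all genes tested, threshold 0.05). The standard error is the log2 fold change over the root of F. An exact permutation test of 2 against 2 pools cannot give a p below 0.333, so none was run. DESeq2 1.42.0, no TMM, other minimums, the replicate block, the scaling undone, 1 genotype alone and leaving out each library were alternatives. The block within each genotype, both first or both second KO pools left out, and the share of male cells from Xist were added after seeing the data. The 10 genes, the lists and the tests were chosen with earlier results of these data known. All 10 genes were named, and from the lists every gene past the threshold, up to the 8 with the lowest p per list and comparison. Positions and exon lengths are from GENCODE M21 on GRCm38. The spread between mice was not sampled separately from that between pools. From the list of complement genes 1 gene is not reported here.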

Additional observations from a re-analysis of the deposited data

How the results depend on the processing

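The 10 genes' calls depended on the processing as follows, and the cause was not tested. For the UTP effect in WT, 0 genes of the 10 were called, against 1 in DESeq2, 1 with no minimum and 4 with the replicate block within each genotype. In the same comparison 214 of all genes were called, against 568 in DESeq2, 1083 with no minimum, 2 with 1 genotype alone, 679 with the replicate block within each genotype, 2 without both first KO pools, 2 without both second KO pools and 108 with the male share, and 1 to 2403 when 1 library was left out. For the UTP effect in P2Y2 KO, 6 of all genes were called, against 107 in DESeq2, 319 with no minimum, 3 with 1 genotype alone, 48 with the replicate block within each genotype, 1 without both first KO pools, 2 without both second KO pools and 28 with the male share, and 2 to 156 when 1 library was left out. For the difference of these effects, 0 of all genes were called, against 6 in DESeq2 and 28 with no minimum, and 0 to 275 when 1 library was left out. For P2Y2 KO against WT untreated, 4 genes of the 10 were called, against 7 with no minimum, 7 with the replicate block within each genotype and 7 with the male share, and 1 to 4 when 1 library was left out. In the same comparison 3628 of all genes were called, against 2175 in DESeq2, 335 without both first KO pools, 1386 without both second KO pools and 1435 with the male share, and 720 to 3984 when 1 library was left out. For P2Y2 KO against WT with UTP, 3 genes of the 10 were called, against 8 with no minimum, 8 with the replicate block within each genotype and 7 with the male share, and 0 to 6 when 1 library was left out. In the same comparison 3053 of all genes were called, against 663 without both first KO pools and 1098 without both second KO pools, and 640 to 4095 when 1 library was left out.

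Log2 fold changes turned their sign in these added alternatives, and neither value of a pair was called. The sign in the UTP effect in WT turned for Zfp423 (0.090 with the male share). The sign in the UTP effect in P2Y2 KO turned for Zfp423 (0.066 without both second KO pools). The sign in the difference of these effects turned for Pparg (−0.080 with the male share), Cebpb (0.034 without both first KO pools), Cebpb (0.10 with the male share), Zfp423 (−0.0052 without both first KO pools), Zfp423 (−0.15 with the male share), Fabp4 (−0.12 with the male share) and Cfd (−0.065 with the male share). The sign in P2Y2 KO against WT untreated turned for Pparg (−0.044 without both second KO pools), Zfp423 (0.27 without both first KO pools), Zfp423 (0.45 with the male share) and Lpl (−0.0042 without both second KO pools). The sign in P2Y2 KO against WT with UTP turned for Zfp423 (−0.19 without both second KO pools).

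The sign also turned when 1 library was left out, with these lowest and highest values. In the UTP effect in WT these were found for Cebpa (−0.026 to 0.14), Cebpb (−0.00072 to 0.44) and Zfp423 (−0.34 to 0.038). In the UTP effect in P2Y2 KO these were found for Pparg (−0.74 to 0.027), Cebpa (−0.19 to 0.021), Zfp423 (−0.36 to 0.30), Fabp4 (−0.53 to 0.24), Adipoq (−1.05 to 0.68), Lpl (−0.040 to 0.19), Plin1 (−1.26 to 0.72) and Cfd (−1.39 to 0.61). In the difference of these effects these were found for Pparg (−0.17 to 0.60), Cebpb (−0.29 to 0.15), Zfp423 (−0.22 to 0.44), Fabp4 (−0.30 to 0.48), Adipoq (−0.13 to 1.59), Plin1 (−0.43 to 1.55) and Cfd (−0.42 to 1.58). In P2Y2 KO against WT untreated these were found for Pparg (−0.043 to 0.46), Zfp423 (−0.39 to 0.27) and Lpl (−0.042 to 0.28). In P2Y2 KO against WT with UTP these were found for Zfp423 (−0.19 to 0.27).

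Pool numbers were not shown to pair the libraries over all groups (deviations from the group means correlated at 0.42 between both P2Y2 KO groups, 0.011 between both WT groups and −0.14 to 0.114 across genotypes). With the replicate block, 0, 0, 0, 4 and 4 of the 10 genes were called in the 5 comparisons, in the order above. With the replicate block within each genotype, added after seeing the data, the 4 genes called for UTP in WT by edgeR were Cebpd (0.70, adjusted p = 0.0285), Adipoq (−0.92, adjusted p = 0.00392), Plin1 (−0.83, adjusted p = 0.018) and Cfd (−0.97, adjusted p = 0.00203). Over all settings the single genes' values kept direction and side of the threshold 788 times, fell short of it 30 times, passed it newly 50 times and turned sign 52 times. Depth limits little here, since each gene of the 10 was read at 4.60 CPM or more in every library, whereas 2 pools a group limit the precision.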
